A study of Homo sapiens with 12 samples.

Results

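The genes described here are 8 keratins of simple and luminal epithelia, KRT4, KRT7, KRT8, KRT13, KRT18, KRT19, KRT20 and KRT23, taken by gene symbol from a table of 58302 genes. Each of the 8 symbols matched 1 row, and the table holds 54 numbered keratin genes in all. RNA-sequencing was applied to 3 established human prostate cell lines, with 4 libraries of each, to compare benign with PCa (prostate cancer) cells. BPH-1 is a benign prostate epithelial line, immortalised with a viral T antigen. DU145 and PC3 are PCa lines that grow without androgen, first grown from metastases in the brain and in bone. All lines were labelled wild type, with no treatment named, and were kept in the same DMEM with fetal bovine serum, so each group is 1 line in culture. Whether the 4 libraries of a line came from separate cultures is not given in the sources used here, so the p-values measure the spread between these libraries, which may be technical.

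Keratins build the intermediate filaments of epithelial cells. A filament forms only from pairs of a type II (basic) and a type I (acidic) keratin, and the pair in use tells epithelia apart. KRT8 (type II) and KRT18 (type I) are the first pair of simple, single-layered epithelium and mark luminal prostate cells, whereas KRT5 and KRT14 mark basal cells. KRT7 (type II) and KRT19 (type I) are added in many ductal and glandular epithelia, and KRT7 with KRT20 (type I) is a familiar pair of stains for the origin of a carcinoma. KRT4 (type II) and KRT13 (type I) pair in the upper layers of stratified mucosa, and KRT23 is a type I keratin of glandular and some stratified epithelia.

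The genes lie in the 2 keratin clusters of the human genome (GRCh38, coordinates as in the table). On chromosome 12 are KRT7 (52232520 to 52252186, plus strand), KRT4 (52806549 to 52814551, minus strand), KRT8 (52897187 to 52949954, minus strand) and, unlike other type I keratins, KRT18 (52948871 to 52952901, plus strand). On chromosome 17, all on the minus strand, are KRT20 (40875941 to 40885227), KRT23 (40922696 to 40937634), KRT13 (41500981 to 41505705) and KRT19 (41523617 to 41528308).

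Expression is given as FPKM, the fragments or reads of a gene scaled by the length of its exons and by the depth of the library. Depth recovered from the values was between 12950658 and 16309559 reads per library. Markers bore on the labelled cell types as follows. The basal markers TP63, KRT5, KRT14, KRT15 and ITGA6 summed to between 379 and 500 FPKM in BPH-1, against at most 13.9 in DU145 and 31.6 in PC3. KLK2 and KLK3, the kallikreins that define secretory luminal cells, had at most 3 reads in every library. The epithelial adhesion gene EPCAM lay between 57.7 and 63.2 FPKM in BPH-1, between 6.92 and 11.1 in PC3 and between 0.166 and 0.573 in DU145, so DU145 held only traces of it. CDH1, of the same epithelial list, was at 16.3 to 44.6 in BPH-1 but low in PC3 (0.427 to 1.42) and DU145 (0.0851 to 0.297). So was CLDN7, at 5.03 to 10.6, 0.284 to 1.02 and 0.319 to 0.491 in the same order. CLDN4 varied within BPH-1 (0.0232 to 6.32) and PC3 (0.0388 to 15.7) and was at most 0.0992 in DU145. In BPH-1, replicates 2 and 4 stood apart in KRT4, KRT13, KRT23 and some genes of squamous differentiation. In DU145, replicates 1 and 2 had 1.35 and 1.25 FPKM of the leukocyte gene PTPRC and 7.76 and 8.63 of LYZ, both listed at 0 in replicates 3 and 4. BPH-1 held both in every library, with PTPRC at 1.40, 1.54, 1.31 and 1.15 and LYZ at 9.06, 10.1, 8.75 and 7.61. PC3 was listed at 0 for PTPRC and had at most 0.167 of LYZ. CD68, of the same leukocyte list, was found in all 4 DU145 libraries (5.85, 3.83, 9.95 and 5.06), and the fibroblast gene DCN was listed at 0 in replicates 1 and 2 and at 0.373 and 0.214 in replicates 3 and 4. The leukocyte list (PTPRC, CD3E, LYZ and CD68) summed to between 5.06 and 15 FPKM in DU145, 13.6 and 18.2 in BPH-1 and 6.92 and 13.5 in PC3, and CD3E had at most 3 reads in every library. Values without these libraries are given beside the results that they move, and their part in the results was not tested beyond that.

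KRT7 led the 8 in every DU145 library and KRT19 in every PC3 library, whereas BPH-1 had no single leading keratin. In BPH-1 the order of mean FPKM was KRT18 (35.8), KRT19 (32.0) and KRT8 (31.1), whose ranges overlapped, then KRT13 (7.51), KRT4 (2.60), KRT23 (1.10) and KRT7 (1.09), whose neighbours also overlapped, and last KRT20. In DU145 it was KRT7 (218), KRT18 (69.0), then KRT19 (22.7) and KRT8 (19.7), which overlapped, with the other 4 at means of at most 0.108. In PC3 it was KRT19 (232), KRT7 (60.4), then KRT18 (29.5) and KRT8 (23.0), which overlapped, again with the other 4 at means of at most 0.108. Only 1 pair changed places when the length was taken over merged exons: KRT8 then came before KRT19 in BPH-1, where they overlapped on either scale.

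**Figure D1:**
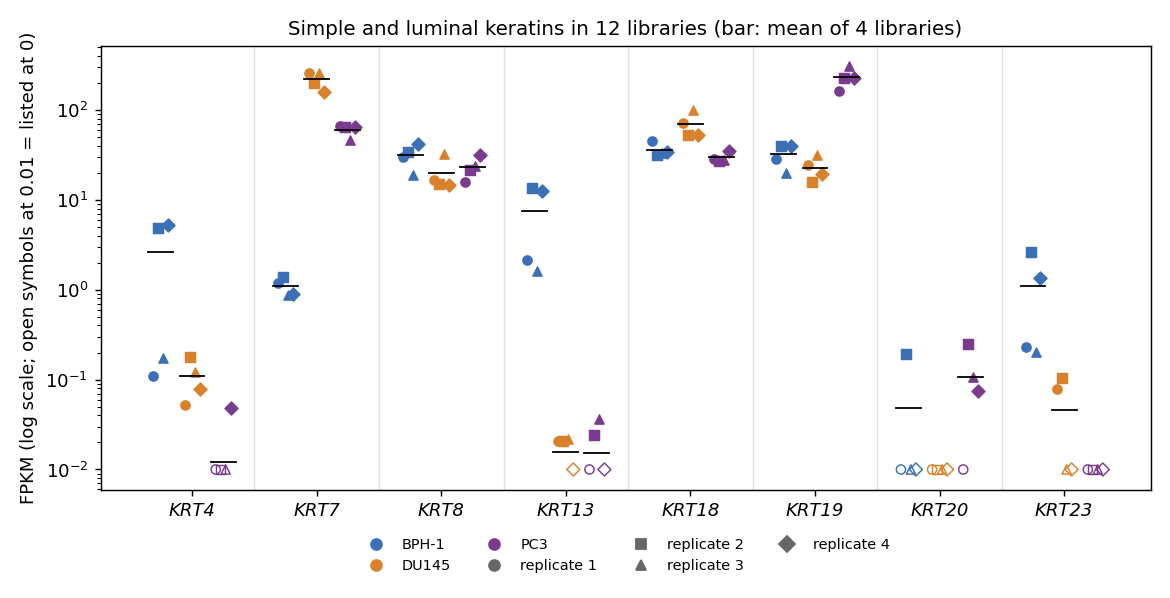
FPKM of the 8 keratins (log axis) in the 12 libraries, coloured by line, with 1 symbol shape per replicate number and a bar at the mean of 4 libraries; open symbols at the foot are values listed at 0. KRT7 in DU145 (158 to 260) and KRT19 in PC3 (164 to 307) stand above every other of the 8 keratins in their line, and KRT4, KRT13 and KRT23 split the BPH-1 libraries into replicates 2 and 4 above and replicates 1 and 3 below.

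KRT7 had the largest fitted differences of the members against BPH-1. Its FPKM was 1.18, 1.40, 0.873 and 0.905 in BPH-1 replicates 1 to 4. The DU145 libraries had 260, 200, 255 and 158, and the PC3 libraries 66.4, 63.9, 46.4 and 64.8. No 2 lines overlapped, with DU145 above PC3 and PC3 above BPH-1 in every library. The mean was 200-fold higher in DU145 than in BPH-1 (log2 fold change 6.69, standard error 0.19, limma with Benjamini-Hochberg adjusted p = 2.48e-08, on the log2(FPKM + 1) scale used for all fitted changes). Against BPH-1, PC3 was 55.5-fold higher (log2 fold change 4.87, standard error 0.15, limma adjusted p = 2.02e-08). Between the PCa lines PC3 was the lower (log2 fold change -1.82, standard error 0.20, limma adjusted p = 7.38e-05). BPH-1 still held between 94 and 148 reads of KRT7 per library, so the gene was low there and not absent. An antisense gene, KRT7-AS, shares 282 exon bases with KRT7 (6.89% of its exon length), and reads of both cannot be told apart if strand was not used in counting.

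KRT19, the smallest keratin and a marker of ductal epithelium, set PC3 apart. BPH-1 replicates 1 to 4 had 28.1, 39.9, 20 and 39.8 FPKM. DU145 had 24.3, 15.6, 31.2 and 19.6, and PC3 had 164, 226, 307 and 229. Every PC3 library lay above every library of the other lines, while BPH-1 and DU145 overlapped. PC3 exceeded BPH-1 7.25-fold (log2 fold change 2.84, standard error 0.25, limma adjusted p = 9.48e-06) and DU145 10.2-fold (log2 fold change 3.30, standard error 0.25, limma adjusted p = 7.74e-06). DU145 and BPH-1 did not pass the test (log2 fold change -0.47, standard error 0.27, limma adjusted p = 0.155). With all libraries rescaled to the same sum that difference was -0.71 (limma adjusted p = 0.0421), and with each library's GC trend divided out -1.01 (limma adjusted p = 0.0012). It was -0.10 without BPH-1 replicates 2 and 4 (limma adjusted p = 0.793) and -0.30 without DU145 replicates 1 and 2 (limma adjusted p = 0.463).

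KRT18 and KRT8, partners in the simple-epithelial filament, were present in all 12 libraries and differed far less. KRT18 was at 44.9, 31.4, 33.0 and 34.0 FPKM in BPH-1. In DU145 it was at 71.1, 52.8, 99.2 and 52.8, and in PC3 at 28.7, 26.8, 28 and 34.7. DU145 lay above the other lines in every library, and PC3 and BPH-1 overlapped. The KRT18 mean was 1.93-fold higher in DU145 than in BPH-1 (log2 fold change 0.89, standard error 0.22, limma adjusted p = 0.00614) and exceeded that of PC3 as well (PC3 minus DU145 -1.15 in log2, limma adjusted p = 0.00171, standard error 0.21). The first of these did not pass the test with the GC trend divided out (0.37, limma adjusted p = 0.0703) or without BPH-1 replicates 2 and 4 (0.78, limma adjusted p = 0.0733).

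KRT8 had 30.2, 33.9, 18.7 and 41.7 FPKM in BPH-1. The values were 16.6, 14.8, 32.5 and 14.7 in DU145 and 15.9, 21.4, 23.7 and 31.1 in PC3. All 3 lines overlapped, and in DU145 replicate 3 was about as high as the BPH-1 libraries. Of the 3 comparisons none passed the test for KRT8: the log2 fold change was -0.40 in PC3 (standard error 0.26, limma adjusted p = 0.191) and -0.66 in DU145 (standard error 0.30, limma adjusted p = 0.0801) against BPH-1, and 0.26 between PC3 and DU145 (standard error 0.28, limma adjusted p = 0.489).

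Calls for this pair against BPH-1 moved with single libraries and with scaling. KRT8 passed the test in DU145 without BPH-1 replicate 3 (-0.88, limma adjusted p = 0.0281) or without DU145 replicate 3 (-0.92, limma adjusted p = 0.00994), and in PC3 without BPH-1 replicate 3 (-0.62, limma adjusted p = 0.0342). With the same sum per library KRT8 was lower in both PCa lines (PC3 -0.67, limma adjusted p = 0.0400, and DU145 -0.90, limma adjusted p = 0.0245). The same held with the GC trend divided out (PC3 -0.74, limma adjusted p = 0.0123, and DU145 -1.17, limma adjusted p = 0.00213). Without BPH-1 replicates 2 and 4 the KRT8 change was -0.08 in PC3 (limma adjusted p = 0.822) and -0.34 in DU145 (limma adjusted p = 0.471). KRT18 in PC3 against BPH-1, at -0.26 (standard error 0.14, limma adjusted p = 0.115), also passed with the same sum (-0.53, limma adjusted p = 0.00665), with the GC trend divided out (-0.58, limma adjusted p = 0.00476) and without PC3 replicate 4 (-0.34, limma adjusted p = 0.0421). Rescaling to the same sum moved the median change of all genes from -0.13 to -0.28 in PC3 and from -0.03 to -0.16 in DU145.

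The ratio of the partners changed more clearly than KRT8 alone. KRT8 FPKM divided by KRT18 FPKM was 0.673, 1.08, 0.566 and 1.22 in BPH-1 replicates 1 to 4, 0.233, 0.281, 0.328 and 0.278 in DU145, and 0.553, 0.80, 0.848 and 0.894 in PC3. DU145 lay below both other lines in every library. The difference in log2 ratio was -1.60 for DU145 against BPH-1 and 1.45 for PC3 against DU145, each with a two-sided exact permutation p = 0.0286, the smallest that 4 libraries against 4 allow. PC3 and BPH-1 did not differ detectably in it (log2 difference -0.15, exact permutation p = 0.629). The ratio in BPH-1 was higher in replicates 2 and 4, and without them the difference was -1.15 for DU145 (exact permutation p = 0.0667, the smallest that 2 libraries against 4 allow) and turned to 0.30 for PC3 (exact permutation p = 0.4). For PC3 it also turned to 0.01 without PC3 replicate 1 and to 0.03 without BPH-1 replicate 4.

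KRT8 and KRT18 have many processed pseudogenes, intronless copies of the mRNA, and short reads can be shared with them. The sequences are shown because they make plain how alike a keratin and its copies are, with the named bases read from GRCh38 in the direction of the keratin's mRNA and capitals at the positions where they differ. The KRT8 window lies on the minus strand at chr12:52904790-52904849 in exon 2 of its transcript KRT8-201, and its capitals mark every position at which either copy differs. KRT8P10 (chr2:183072295-183072354, minus strand) has 7 mismatches with it over the 60 bases and KRT8P45 (chr1:157073389-157073448, plus strand) has 4. KRT18 is shown at chr12:52949352-52949411 (plus strand, exon 1 of KRT18-201) with KRT18P15 (chr3:32259130-32259189, plus strand), which has 8 mismatches.
KRT8: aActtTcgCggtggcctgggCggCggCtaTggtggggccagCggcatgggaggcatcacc
KRT8P10: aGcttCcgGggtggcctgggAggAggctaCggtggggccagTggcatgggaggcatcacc
KRT8P45: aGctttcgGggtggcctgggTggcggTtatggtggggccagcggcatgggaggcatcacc
KRT18: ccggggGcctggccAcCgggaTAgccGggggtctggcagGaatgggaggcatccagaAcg
KRT18P15: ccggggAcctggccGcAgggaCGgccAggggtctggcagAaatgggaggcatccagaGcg

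Over the whole coding sequence of KRT8 (1449 bases), KRT8P3 was 97.1% identical, KRT8P45 95.1%, KRT8P33 93.9% and KRT8P10 91.4%. KRT8P3 was listed at a mean FPKM of 26.9 ± 3.70 (SD, n = 4) in BPH-1, 17.9 ± 5.66 in DU145 and 20.8 ± 6.42 in PC3, close to the FPKM of KRT8 in each line. KRT8 was scaled by 14233 bases of exons and KRT8P3 is 1449 bases long, so KRT8P3 held far fewer reads. KRT8P12 departed from that order of the lines, with 8.68 ± 0.285 in DU145 against 4.67 ± 0.789 in BPH-1 and 4.31 ± 0.419 in PC3. Of the 50 KRT8 pseudogenes 35 had a value, and together they took between 11.6% and 20.5% of the reads of KRT8 and its copies per library. The KRT18 copies took between 3.22% and 4.65% of that family's reads. With the FPKM of the copies added to that of their parents, the KRT8 to KRT18 difference was -1.36 for DU145 against BPH-1 and 1.2 for PC3 against DU145 (each exact permutation p = 0.0286). The KRT8 copies summed to a mean of 46.2 FPKM in BPH-1, 37.1 in DU145 and 35.9 in PC3, above KRT8 itself. FPKM weights these shorter copies more than their reads do, so this sum is not a reassignment of shared reads. KRT8 and KRT18 also overlap each other on opposite strands over 525 exon bases, which is 7.63% of KRT8's exon length and 16.3% of KRT18's, and without strand those reads cannot be assigned.

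KRT13 and its partner KRT4, the keratins of stratified mucosa, were found almost wholly in BPH-1, where the libraries disagreed. KRT13 was at 2.12, 13.7, 1.63 and 12.5 FPKM in BPH-1 replicates 1 to 4. DU145 had 0.0206, 0.0205, 0.0216 and 0, and PC3 had 0, 0.0243, 0.0361 and 0, which is at most 3 reads in any library of either line. Both PCa lines lay below all BPH-1 libraries, and within BPH-1 replicates 2 and 4 lay far above replicates 1 and 3. The fitted log2 fold change was -2.65 in PC3 (standard error 0.54, limma adjusted p = 0.00183) and -2.65 in DU145 (standard error 0.53, limma adjusted p = 0.00169). KRT13 passed the read filter through BPH-1, so the direction of these fits was set by the filter. In reads, BPH-1 was 481-fold above PC3 and 460-fold above DU145 (2780 reads against 5 and 6, 95% intervals 206 to 1480 and 211 to 1250, for counting error only). Without BPH-1 replicates 2 and 4 these ratios were 120 and 115, and the log2 fold change was -1.50 in each line, with limma adjusted p = 1.81e-05 in PC3 and 2.77e-05 in DU145.

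KRT4 followed the same split in BPH-1, with 0.109, 4.90, 0.176 and 5.23 FPKM. DU145 had 0.0519, 0.180, 0.123 and 0.0784, and PC3 was listed at 0 in 3 libraries and at 0.0487 (3 reads) in replicate 4. BPH-1 replicates 1 and 3, at 8 and 13 reads, lay inside the DU145 range of 4 to 14 reads. DU145 against BPH-1 did not pass the test (log2 fold change -1.25, standard error 0.55, limma adjusted p = 0.0702). It did without BPH-1 replicate 1 (-1.66, limma adjusted p = 0.0207) or replicate 3 (-1.64, limma adjusted p = 0.026), and without replicates 2 and 4 it was -0.04 (limma adjusted p = 0.547). Against PC3, KRT4 was under the read filter and not fitted. Over all libraries BPH-1 held 765 reads and PC3 3, a ratio of 221 (95% counting interval 75.2 to 1070). Replicates 2 and 4 held 356 and 388 of those reads. Without replicate 4 the ratio was 145, and without both it was 12.1 (3.61 to 63.4).

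KRT23 was at 0.231, 2.62, 0.202 and 1.35 FPKM in BPH-1. It was at 0.0793 and 0.105 (9 and 12 reads) in DU145 replicates 1 and 2 and listed at 0 in DU145 replicates 3 and 4 and in all PC3 libraries. BPH-1 again split into replicates 2 and 4 above and 1 and 3 below, and no PCa library reached the lowest BPH-1 value. BPH-1 was at least 137-fold higher than PC3 (475 reads against 0), against a floor of 3 reads over the group. That bound was 74.7 without BPH-1 replicate 2 and 27.1 without replicates 2 and 4. Against DU145 the read ratio was 22.5 (95% counting interval 14.5 to 36.6), which was 12.2 without BPH-1 replicate 2 and 4.44 without replicates 2 and 4. KRT23 passed the read filter through BPH-1, which set the direction of its fits. The fitted change was -0.91 in PC3 (standard error 0.31, limma adjusted p = 0.0261) and -0.85 in DU145 (standard error 0.31, limma adjusted p = 0.0338). At levels this low its size depends on the pseudocount, and with 0.1 in place of 1 it was -2.99 (limma adjusted p = 0.00271) and -2.52 (limma adjusted p = 0.0097). Without BPH-1 replicates 2 and 4 it was -0.28 in PC3 (limma adjusted p = 0.000197) and -0.22 in DU145 (limma adjusted p = 0.0151).

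The KRT23 calls lay near the threshold and were lost under several settings, often with the same fitted change. With no read filter neither passed (-0.91, limma adjusted p = 0.0691 in PC3 and -0.85, limma adjusted p = 0.0868 in DU145). In PC3 it did not pass without BPH-1 replicate 4 (-0.81, limma adjusted p = 0.0712) or without PC3 replicate 1, 3 or 4 (each -0.91, limma adjusted p = 0.0504, 0.0538 and 0.0535). In DU145 it did not pass without BPH-1 replicate 2 (-0.54, limma adjusted p = 0.0541) or 4 (-0.74, limma adjusted p = 0.0876), or without DU145 replicate 1, 2, 3 or 4 (-0.87, -0.88, -0.83 and -0.83, limma adjusted p = 0.0616, 0.0531, 0.0657 and 0.0646). Without DU145 replicates 1 and 2, where KRT23 had its only reads in that line and where PTPRC and LYZ were found, its change was -0.91 (limma adjusted p = 0.106). DU145 replicates 1 and 2 also had KRT5 at 0.342 and 0.499 FPKM and KRT14 at 0.275 and 0.442, against at most 0.024 in replicates 3 and 4, and BPH-1 had at least 120 of each. Where these reads came from was not tested.

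Some genes of the cornified envelope and of its regulation, picked after these values were seen, split the BPH-1 libraries in the same way, and others of squamous differentiation did not. IVL (involucrin, an envelope protein) was at 6.36, 41.8, 5.71 and 39.7 FPKM in BPH-1 replicates 1 to 4. SPRR1B, another envelope protein, was at 6.90, 40.7, 6.13 and 59.8. TGM1, the enzyme that cross-links the envelope, was at 2.64, 9.14, 1.98 and 9.55. ZNF750, a factor of terminal epidermal differentiation, had 0.633, 3.02, 0.357 and 3.15 FPKM. KRT10, a keratin of the upper epidermis, did not follow them, at 5.68, 5.85, 10.1 and 9.91, and FLG (filaggrin) was at 0.472 ± 0.0964 (SD, n = 4). MYC went the other way, with 20.3, 1.17, 25.5 and 0.985, so replicates 2 and 4 were high in these envelope genes and low in MYC. KRT8 and KRT19 were highest in these libraries too, while KRT18 was not. MYC also split the other lines, at 1.13 and 0.975 in DU145 replicates 1 and 2 against 27.0 and 20.5 in replicates 3 and 4, and at 30.3 in PC3 replicate 2 against at most 1.57 in the others. The labels give no culture density, passage or day for any library. In bulk RNA, more cells of a state and more RNA per cell cannot be told apart.

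**Figure D2:**
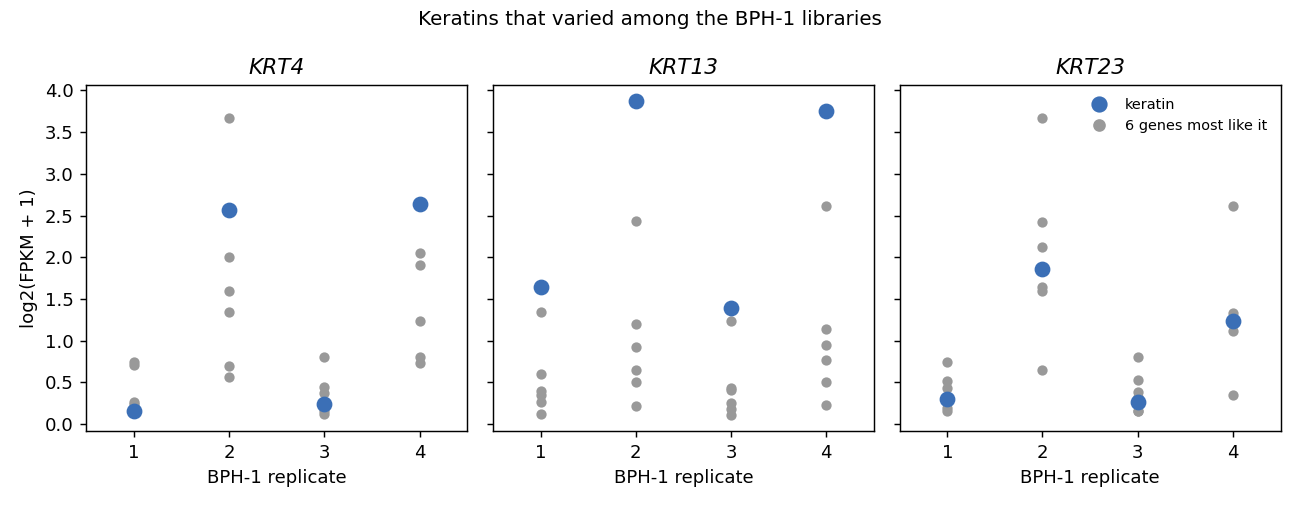
KRT4, KRT13 and KRT23 (blue) and the 6 protein-coding genes most like each of them over the 12 libraries (grey) in the 4 BPH-1 libraries, as log2(FPKM + 1). Replicates 2 and 4 lie above replicates 1 and 3 for each keratin, for example 13.7 and 12.5 FPKM against 2.12 and 1.63 for KRT13.

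The KRT4 promoter is shown, from RefSeq (GRCh38.p14). The promoters of KRT13 and KRT23 were not analysed here. The KRT4 window spans 250 bases before to 50 after the RefSeq transcript start at chr12:52814067-52814366, on the minus strand. It lies inside the span listed above for KRT4 (52806549 to 52814551), so the RefSeq start is not the outermost listed start of the gene. Capitals mark TATAA, the core of a TATA box, which begins 29 bases before the start.
KRT4: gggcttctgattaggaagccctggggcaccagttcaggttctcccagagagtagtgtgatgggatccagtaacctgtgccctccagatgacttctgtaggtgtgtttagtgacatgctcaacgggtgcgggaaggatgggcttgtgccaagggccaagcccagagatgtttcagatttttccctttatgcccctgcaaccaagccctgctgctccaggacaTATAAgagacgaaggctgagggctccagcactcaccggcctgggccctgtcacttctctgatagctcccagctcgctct
TATAA was found on either strand in 20.4% of 35116 promoters of the same length. The letters CCAAT, held by 34.6% of promoters, are not in the KRT4 window on either strand. Neither is GGGCGG, held by 45.0%, nor TGANTCA, which 7.71% hold.

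KRT20, a keratin of intestinal and umbrella-cell epithelium, was near 0 in all lines. BPH-1 had 0.192 FPKM (6 reads) in replicate 2 and was listed at 0 in the other 3 libraries, all DU145 libraries were listed at 0, and PC3 had 0, 0.25, 0.106 and 0.0755 (at most 7 reads). The lines overlapped and KRT20 passed the read filter in no comparison.

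Across the comparisons the members tested split in direction. In PC3 against BPH-1, 6 of the 8 passed the read filter, of which KRT7 and KRT19 were higher and KRT13 and KRT23 lower at an adjusted p under 0.05. KRT13 and KRT23 passed that filter through the BPH-1 libraries, where they were high, here and in DU145 against BPH-1, so their direction there was set by the filter. Of all 16408 genes tested 67.6% were called (27.1% higher and 40.4% lower), so 4 of 6 is near the background. With a log2 fold change over 1, as for KRT7 and KRT19, 9.42% of genes were called higher, and 17.6% were called lower, as for KRT13. In DU145 against BPH-1, 7 passed the filter, KRT7 and KRT18 were higher, KRT13 and KRT23 lower. Of 17016 genes 62.7% were called (30.3% higher and 32.4% lower), 11.5% higher and 17.3% lower with a log2 fold change over 1. The members called past that fold were KRT7 and KRT13, and with the fold 28.8% of genes were called in all, against 27% in PC3 against BPH-1. In PC3 against DU145, 4 passed the filter, KRT19 was higher, KRT7 and KRT18 lower, each past a log2 fold change of 1. Of 16420 genes 48.3% were called (20% higher and 28.3% lower), 19.3% with that fold (8.22% higher and 11.1% lower). The libraries of 2 lines did not overlap for 64.4% of genes tested in PC3 against BPH-1, 59.5% in DU145 against BPH-1 and 46.5% in PC3 against DU145. The median change of the members tested was -0.33, -0.66 and -0.45 in these comparisons, against -0.13, -0.03 and -0.05 over all genes tested. The medians against BPH-1 include KRT13 and KRT23. They therefore carry the direction set by the filter and cannot show a shift of the members below all genes. With the filter's reads required in every library, 4 members were tested in each comparison with BPH-1. Of these, 2 were higher and 0 lower in PC3, and the same counts held in DU145. Comparisons with BPH-1 share its 4 libraries.

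**Figure D3:**
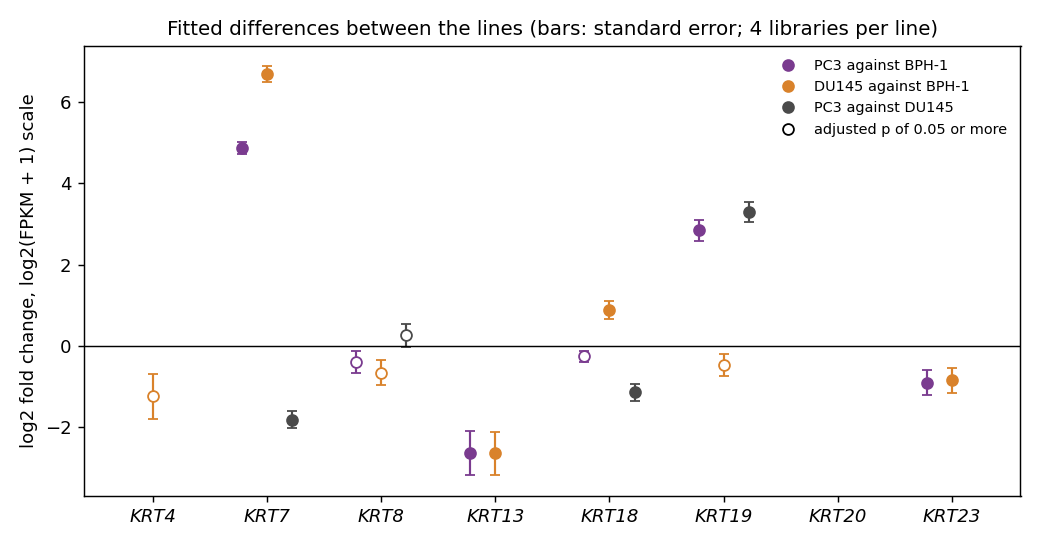
Fitted log2 fold changes of the members tested, on the log2(FPKM + 1) scale, in the 3 comparisons (4 libraries per line); bars are standard errors and open symbols have an adjusted p of 0.05 or more. KRT7 is higher in both PCa lines (4.87 in PC3 and 6.69 in DU145), KRT19 in PC3 alone (2.84), and KRT18 in DU145 (0.89).

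Summed over the 8 keratins, the level was higher in every PCa library than in BPH-1, whereas the sum of all keratins was not. The 8 summed to 107, 128, 74.6 and 136 FPKM in BPH-1, 372, 283, 418 and 245 in DU145, and 274, 339, 406 and 360 in PC3, so no BPH-1 library reached a PCa library. All 54 keratins summed to 834 ± 149 FPKM (SD, n = 4) in BPH-1, 448 ± 105 in DU145 and 792 ± 124 in PC3. The 8 therefore made up 13.2% ± 1.21 of keratin FPKM in BPH-1, 73.4% ± 2.39 in DU145 and 43.9% ± 7.25 in PC3. Within the 8, KRT7 alone held 66.5% ± 4.55 in DU145.

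In the deposited FPKM, type I keratins outweighed type II in BPH-1, and type II outweighed type I in both PCa lines. Over all keratins, the ratio of type II to type I FPKM was 0.585, 0.515, 0.676 and 0.732 in BPH-1, 3.12, 3.54, 2.63 and 2.85 in DU145, and 2.43, 1.72, 1.16 and 2.5 in PC3. The 3 lines did not overlap. In log2 the difference was 1.59 for PC3 and 2.28 for DU145 against BPH-1 and -0.69 for PC3 against DU145, each with exact permutation p = 0.0286. With lengths over merged exons, an alternative added after the values were seen, these were 1.25, 2.33 and -1.07. Which type outweighs the other within a line depends on the length each gene is scaled by, and is given here for the deposited FPKM only.

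**Figure D4:**
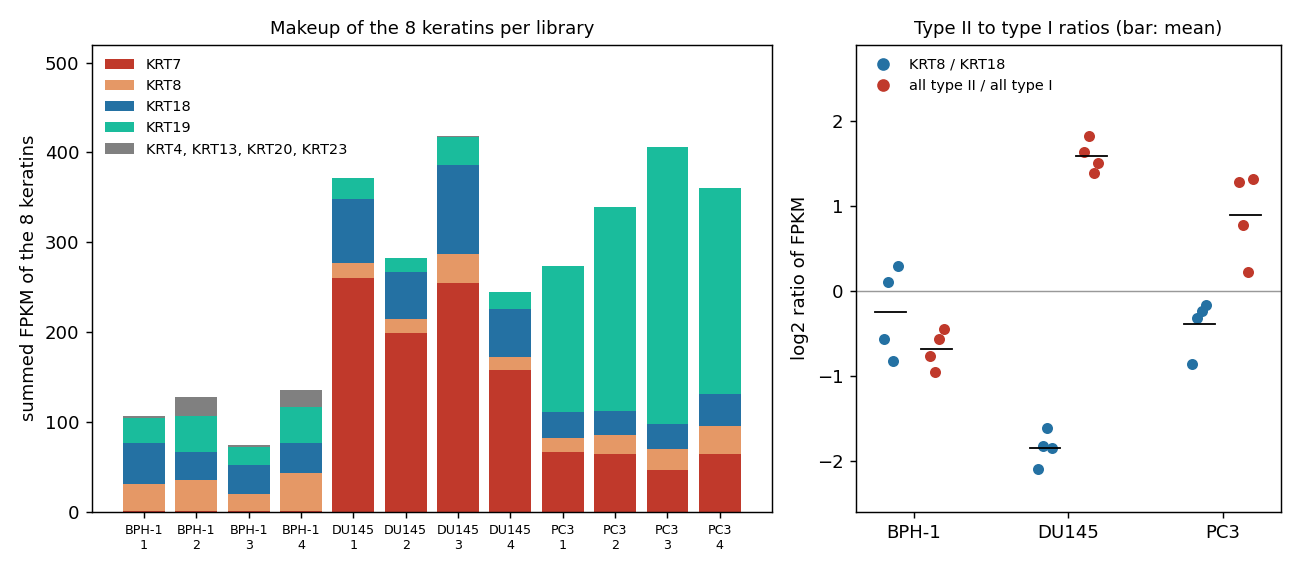
Left, summed FPKM of the 8 keratins in each of the 12 libraries, stacked by gene; right, log2 ratio of KRT8 to KRT18 and of all type II to all type I keratins per library, with a bar at the mean of 4. KRT7 fills most of the DU145 bars and KRT19 most of the PC3 bars, and DU145 has the lowest KRT8 to KRT18 ratio (mean log2 -1.85) beside the highest type II to type I ratio (1.59).

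The other 46 keratins show which partners were at hand. In BPH-1 the highest were the basal keratins KRT17 (213 ± 57.8 FPKM, SD, n = 4), KRT14 (203 ± 37.8) and KRT5 (147 ± 29.6). In DU145 they were KRT80 (87.1 ± 19.7), a type II keratin, KRT10 (18.1 ± 5.19) and KRT81 (5.34 ± 2.27). PC3 had the hair keratin KRT81 at 400 ± 107, then KRT86 at 27.2 ± 7.24 and KRT10 at 9.28 ± 0.95. Of those tested, 4 of 17 were higher and 11 lower in PC3 than in BPH-1 (median log2 fold change -1.2), 5 of 16 higher and 10 lower in DU145 than in BPH-1 (-1.27), and 5 of 10 higher and 4 lower in PC3 than in DU145 (0.34). Over all genes tested those medians were -0.13, -0.03 and -0.05. In the same order, 27.1%, 30.3% and 20% of all genes were called higher and 40.4%, 32.4% and 28.3% lower. Among the keratins lower than in BPH-1, KRT5, KRT14 and KRT17 passed the read filter through BPH-1, where they were high. Their direction was set by the filter, which the counts and medians against BPH-1 carry. With 10 reads required in every library, 1 of 5 tested was higher and 2 lower in PC3 than in BPH-1. In DU145 against BPH-1, 3 of 6 were then higher and 2 lower.

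Genes whose proteins tie keratin filaments to junctions or otherwise bind keratins included DSP, JUP and PERP, which were lower in both PCa lines. Of 18, 2 were higher and 11 lower in PC3 than in BPH-1 (median log2 fold change -0.55, against -0.13 over all genes), where 27.1% of all genes were higher and 40.4% lower. In DU145 against BPH-1, 1 was higher and 11 lower (-1.28, against -0.03), where 30.3% of all genes were higher and 32.4% lower. DSP (desmoplakin, the desmosomal anchor of keratins) was at 133 FPKM in BPH-1 against 6.09 in PC3 (log2 fold change -4.35, limma adjusted p = 6.22e-06) and 3.05 in DU145 (-5.29, limma adjusted p = 8.09e-06). PLEC (plectin, a cytolinker) rose from 36.3 in BPH-1 to 196 in PC3 (2.40, limma adjusted p = 6.29e-07) and 74.5 in DU145 (1.01, limma adjusted p = 0.00101). PKP1, a desmosomal plakophilin, separated the PCa lines, with 72.0 in PC3 and 0.140 in DU145 (5.95, limma adjusted p = 1.31e-07), and 5 of 17 linker genes tested were higher in PC3 than in DU145 and the other 12 were not called, where 20% of all genes were higher and 28.3% lower.

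Among 28 transcription and splicing factors of epithelial cells, 6 of 23 tested were higher and 12 lower in PC3 than in BPH-1 (median log2 fold change -0.61), against 27.1% and 40.4% of all genes. In DU145 against BPH-1, 5 were higher and 15 lower of 23 (-1.11), against 30.3% and 32.4%. PC3 against DU145 had 10 higher and 4 lower of 19 (0.50), against 20% and 28.3%. The basal factor TP63 fell from 12.9 FPKM in BPH-1 to 0.00876 in PC3 (-3.79, limma adjusted p = 1.44e-08) and 0.0286 in DU145 (-3.76, limma adjusted p = 8.1e-08), and GRHL2, a factor of epithelial junction genes, from 12.7 to 0.0201 and 0.0147 (-3.74, limma adjusted p = 2.24e-08, and -3.75, limma adjusted p = 9.05e-08). TP63 and GRHL2 passed the read filter through BPH-1, where they were high, so their direction was set by the filter. HOXB13, a prostate lineage factor, was at 1.61 FPKM in BPH-1, 74.3 in PC3 and listed at 0 in DU145 (PC3 against BPH-1 4.86, limma adjusted p = 4.73e-09). FOXA1, a factor of luminal cells, was at 1.51, 36.0 and 6.33 (PC3 against BPH-1 3.96, limma adjusted p = 9.25e-07).

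The genes most like each abundant keratin were ranked by Pearson r of log2(FPKM + 1) over the 12 libraries, which fall into 3 lines, so r mostly follows the differences between lines and carries no p. Nearest to KRT7 were MGMT (r = 0.994), LIF (0.992) and CABLES1 (0.992), and nearest to KRT19 were PLEKHG5 (0.994), SLC4A11 (0.993) and TEF (0.991). KRT18 was closest to TUBG1 (0.979), MRPL54 (0.975) and STX4 (0.973). KRT8 had the loosest neighbours, RAET1G (0.890), NPC2 (0.874) and CARHSP1 (0.844). By the same measure, added after the values were seen, KRT13 was nearest to BLNK (0.998) and KRT4 to CYP4F12 (0.983).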

How the data were processed

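RNA was isolated with TRIzol and chloroform, and libraries were prepared with a NEB kit. The submitters' processing notes name CASAVA 1.8, HISAT2 2.1.0 and edgeR with GRCh38, and the use of strand is not given in the sources used here. The authors deposited FPKM-like values whose header names no unit, and they are called FPKM here. Whole reads were recovered from the steps between low values, with 92.8% to 93.8% of them whole (within 0.05 of a read) when a gene's length is the sum of its distinct exons. Depth was 12950658 to 16309559 reads (median 15340998), and intervals and floors cover counting error only.

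Genes that reached 10 reads, scaled to the median depth, in 4 libraries and 15 reads over all were fitted on log2(FPKM + 1) with limma 3.58.1 in R 4.3.3 (intensity trend, only the lines compared, Benjamini-Hochberg over all genes tested, threshold 0.05). For 263 genes no length was found, and they were left out. Ratios were compared by two-sided exact permutation tests in Python 3.11.15. The fits were tested on simulated data with known changes. No 2 replicates among the 18 pairs were alike within counting error (chi-square averaged over genes, 19.4 to 244 across the pairs).

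The members and lists were chosen with earlier results of these data known. Named were the members, their pseudogenes and antisense genes with a mean of at least 1, the 3 highest other keratins per line, the genes with the largest changes of each further list (here in part, since some genes are not reported), and the 3 genes most like each member with a mean of at least 10. Alternatives were other pseudocounts, filters, scalings, a GC correction, voom, a replicate block, 1 fit over all lines, a fold limit, exact tests, added pseudogenes and leaving out libraries.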

Additional observations from a re-analysis of the deposited data

Results flagged for a closer look

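Among 28 groups of 4 libraries examined for a library far from its others, 5 held one, where chance gives about 5% of groups. KRT8 in DU145 replicate 3 was at 32.5 FPKM, against at most 16.6 in the other DU145 libraries. KRT7 in PC3 replicate 3 was at 46.4 FPKM, against at least 63.9 in the others. The other 3 rest on very few reads, namely KRT4 in PC3 replicate 4 at 0.0487 FPKM (3 reads), KRT13 in DU145 replicate 4 listed at 0 where the others had 2 reads each, and KRT20 in BPH-1 replicate 2 at 0.192 FPKM (6 reads). In these 3 groups the remaining libraries were level at 0 or at 2 reads, so the 5% does not apply to them.

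The effect against BPH-1 differed between the PCa lines, by the test of PC3 against DU145, for 3 keratins and both ratios. In log2, PC3 minus DU145 was -1.82 for KRT7, -1.15 for KRT18, 3.30 for KRT19, 1.45 for the KRT8 to KRT18 ratio and -0.69 for the type II to type I ratio.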

How the results depend on the processing

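Of the values recomputed for the comparisons, 304 kept their direction and their side of the threshold or stayed within 1.5 times the count, 11 did not, and 3 changed sign. These 3 are of the KRT8 to KRT18 ratio in PC3 against BPH-1, which was not called (-0.15). It lay between -0.34 and 0.03 when 1 library was left out, above 0 without PC3 replicate 1 (0.01) or BPH-1 replicate 4 (0.03), and was 0.30 without BPH-1 replicates 2 and 4. With 10 reads required in every library, fewer genes were tested. Members called were then 2 in PC3 and 2 in DU145 against BPH-1. Other keratins called were 3 in PC3 and 5 in DU145 against BPH-1 and 5 in PC3 against DU145, and epithelial factors called were 10, 11 and 9 in the same order. Requiring a log2 fold change over 1 gave 8 linker genes in PC3 against BPH-1, 2 members in DU145 against BPH-1 and 8 epithelial factors in PC3 against DU145. Leaving out 1 library at a time gave 3 to 5 members called in PC3 and 3 to 6 in DU145 against BPH-1, and 3 throughout in PC3 against DU145. Of the values for single members, 317 kept their side, 16 crossed to the called side and 18 to the other, all in KRT4, KRT8, KRT18, KRT19 and KRT23 against BPH-1. Calls for KRT7, KRT13 and every member in PC3 against DU145 held wherever they could be fitted, with KRT7 between 4.62 and 5.80 in PC3 and 6.29 and 7.64 in DU145. KRT13 and KRT23 could not be fitted with the stricter filter.

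The same-sum scaling lowered the share of calls that were higher in PC3 than in BPH-1 from 40.2% to 30.3%, and in DU145 from 48.4% to 38.6%. Libraries share only a number across lines: same-numbered libraries had deviations correlated between -0.74 and 0.59 in PC3 and DU145. With the replicate number as a block, 4 members were called in PC3 and 5 in DU145 against BPH-1 and 3 between the PCa lines, and KRT4 in DU145 passed (limma adjusted p = 0.0417). Levels of at most 3 reads per library, as for KRT13 and KRT23 in PC3, are limited by depth.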
